A study of Mus musculus with 2 samples.

Results

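The 32 genes described here encode enzymes of glycolysis, transporters of glucose and lactate, the sensor and transcription factor of the oxygen response, and genes known to respond to low oxygen. They were chosen by symbol from the gene column of both count tables, all 32 were found, and they are 32 of 27998 genes counted. Messenger RNA was counted in single tdTomato+ cells sorted from mouse spinal cord, with 1 library of injured cord taken 5 days after lysolecithin, a lipid that strips myelin from axons, and 1 library of uninjured age-matched cord. The mice of both groups carried Cx3cr1-CreER::Rosa26-tdTomato, with C57BL/6J as background strain. They got 4-hydroxytamoxifen in 2 intraperitoneal doses of 1 mg at postnatal week 4, and cords were dissected 4 weeks after that. The Cre recombinase is driven from Cx3cr1, a gene of microglia and other resident macrophages, so the red label marks cells that expressed Cx3cr1 when the drug was given and all their progeny. The labels do not give the number or the sex of the animals behind either library. Each group is 1 library, so every difference is one between 2 libraries with no replicate check.

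Glycolysis splits glucose into pyruvate in the cytosol. Hexokinase traps glucose in the cell, phosphofructokinase commits it to the pathway, and the later steps from glyceraldehyde phosphate to pyruvate return ATP. Lactate dehydrogenase then turns pyruvate into lactate, which leaves through monocarboxylate transporters. Many of these genes are targets of the transcription factor HIF-1, whose alpha subunit is hydroxylated by the Egln enzymes and degraded when oxygen is present, so control of that subunit is largely at the level of protein. Macrophages and microglia are known to use more glycolysis when activated.

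After filtering there were 577 injured cells, with 4396 UMIs in the median cell, and 695 uninjured cells, with 3003 UMIs in the median cell; a UMI is the tag of 1 captured molecule. In all, 3095511 UMIs were counted in injured cells and 2093084 in uninjured cells, and the 2 libraries shared 0 cell barcodes. Levels are given as CPM, the UMIs of a gene scaled to the same total in each library, and a molecule counts as 1 UMI whatever its length. All 11 microglial markers were detected in both libraries, summing to 17207 CPM in injured and 27882 CPM in uninjured cells, while of the 4 T cell markers found Cd3g, Cd3d and Cd3e were at 0 in both and Lck had 107 UMIs in injured and 50 UMIs in uninjured cells. Other signals also differed between the libraries. Damage-associated markers summed to 48761 CPM in injured cells and 6453 CPM in uninjured cells, and 12 early-response genes linked to dissociation to 7226 CPM in injured cells and 15798 CPM in uninjured cells. Interferon-responsive markers summed to 977 CPM in injured and 121 CPM in uninjured cells, and dividing-cell markers to 221 CPM in injured and 13.4 CPM in uninjured cells. Of 6 monocyte markers, 5 were detected in injured cells, at 182 CPM in sum, and 4 in uninjured cells, at 11.0 CPM, with Ly6c2 at 0 in both. Dendritic cell markers summed to 10.0 CPM in injured and 208 CPM in uninjured cells, and endothelial markers to 24.9 CPM in injured and 121 CPM in uninjured cells. The female-specific transcript Xist had 958 UMIs in injured and 8 UMIs in uninjured cells. Y-linked genes had 260 UMIs (84.0 CPM) in injured and 299 UMIs (143 CPM) in uninjured cells, so both libraries held male cells. Beyond the values given with the clusters and for cells without Xist, the part of these signals in the results was not tested.

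Glycolysis and hypoxia genes took a larger part of the counted RNA in injured cells. They made up 0.785% of UMIs in injured cells (95% binomial interval 0.776 to 0.795) and 0.398% in uninjured cells (0.389 to 0.406), 1.98-fold, a log2 ratio of 0.98 (0.95 to 1.02). Without the cells of clusters 7 to 10, described further on and mostly injured, that ratio was 0.21. Ratios were taken for genes whose UMIs in the 2 libraries summed to 20 or more, called measured here, and 31 of the 32 genes reached that sum. The exception was Pfkp, the platelet phosphofructokinase, with 10 UMIs in injured and 3 UMIs in uninjured cells. Of the 31, 11 were at least 2-fold higher in injured cells, or 35.5%, against 7.22% of all 9066 measured genes. Another 3 were at least 2-fold lower, Hk1, Pdk1 and Adm, or 9.68%, against 11.5% of all measured genes, so that share is near the background. The 95% counting interval of the ratio lay above 0 for 18 genes and below 0 for 7, where it did so for 17.1% and 25.8% of all measured genes. The median log2 ratio was 0.60 over the 31 genes and -0.15 over all measured genes, and the 31 ratios ran from -1.43 for Adm to 3.07 for Pgk1. All intervals in this account cover counting error only and say nothing of differences between animals or preparations.

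**Figure D1:**
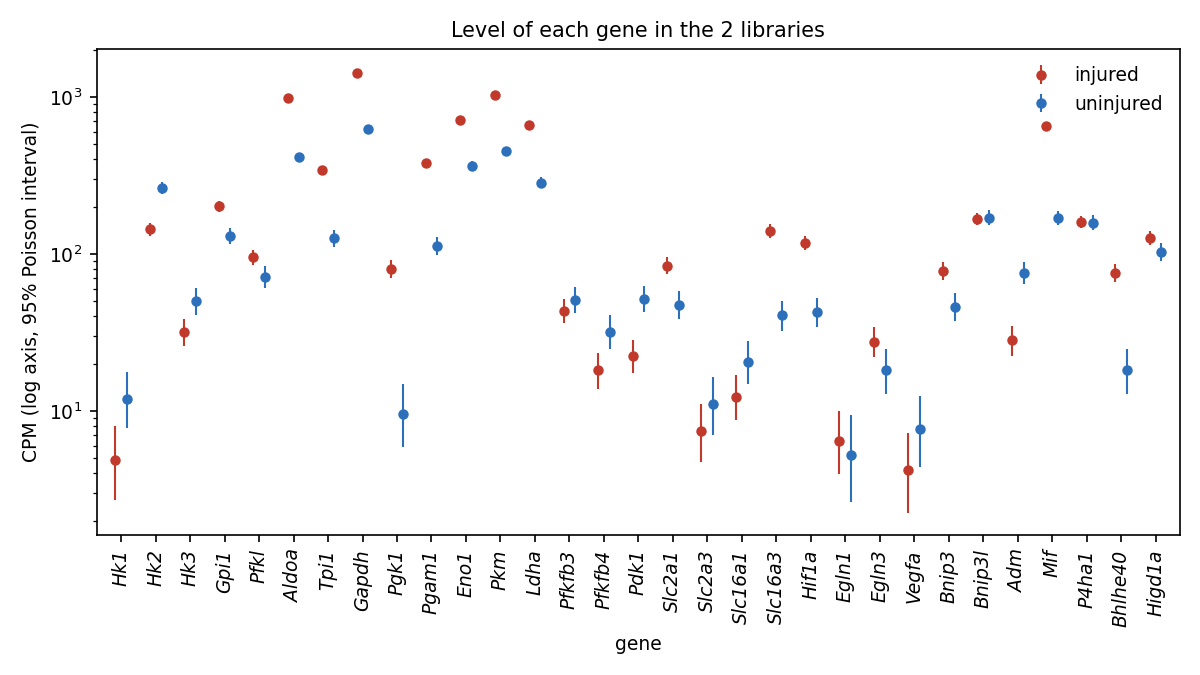
Level in CPM (log axis) of each of the 31 measured genes in injured cells (red) and uninjured cells (blue), 1 library each, with bars for the exact 95% Poisson interval of the count. Gapdh is the most abundant at 1411 CPM in injured cells, against 620 CPM in uninjured cells, and Hk1, Vegfa and Egln1 lie near the bottom.

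The enzymes below fructose bisphosphate were higher in injured cells, step after step. Of the 13 glycolytic enzymes measured, 7 were at least 2-fold higher, or 53.8%, against 7.22% of all measured genes. In the other direction 1 was at least 2-fold lower, or 7.69%, against 11.5% of all measured genes. The median log2 ratio of the 13 was 1.19. Aldoa, the aldolase that cleaves the 6-carbon sugar, stood at 989 CPM in injured cells and 414 CPM in uninjured cells, a log2 ratio of 1.26 (1.15 to 1.37). Tpi1, which interconverts the triose phosphates, stood at 340 CPM in injured and 126 CPM in uninjured cells, a log2 ratio of 1.43 (1.24 to 1.63). In neither of the pair did the counting intervals of the 2 libraries overlap.

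From Gapdh to Ldha, 5 of 6 steps were at least 2-fold higher, or 83.3%, against 7.22% of all measured genes. The median log2 ratio of the 6 was 1.21. Together these 6 genes took 0.427% of UMIs in injured cells and 0.184% in uninjured cells, 2.32-fold. Pgk1, phosphoglycerate kinase and the first step to make ATP, differed most of all 31 genes. It had 248 UMIs (80.1 CPM, interval 70.5 to 90.7) in injured cells and 20 UMIs (9.56 CPM, 5.84 to 14.8) in uninjured cells, 8.38-fold, and each of the 20 uninjured cells that held it had 1 UMI. Pgk1 lies on the X chromosome at chrX:106187100-106203699 and, as the libraries differ in Xist, it was also read in cells with a Y-linked UMI and none of Xist. There it had 67 UMIs in injured and 7 UMIs in uninjured cells, a log2 ratio of 3.24 (2.11 to 4.60), against 3.07 (2.41 to 3.80) over all cells. Pgam1, phosphoglycerate mutase, stood at 380 CPM in injured and 112 CPM in uninjured cells (log2 ratio 1.76, 1.56 to 1.97).

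The remaining steps of this stretch differed by about the same amount. Gapdh, glyceraldehyde phosphate dehydrogenase, stood at 1411 CPM in injured and 620 CPM in uninjured cells, a log2 ratio of 1.19 (1.10 to 1.28). Pkm, pyruvate kinase, stood at 1029 CPM in injured and 451 CPM in uninjured cells, also a log2 ratio of 1.19 (1.09 to 1.30). Ldha, the lactate dehydrogenase subunit that favours lactate production, stood at 665 CPM in injured and 284 CPM in uninjured cells, a log2 ratio of 1.23 (1.10 to 1.36). Eno1, enolase, was just under the 2-fold line at 708 CPM in injured and 365 CPM in uninjured cells (0.96, 0.84 to 1.08). Gapdh, Eno1 and Mif are uncertain as single genes. Of the 50-base words of their last 400 transcript bases, 87.7%, 83.8% and 61.3% also occur in other annotated genes. In other genes that are counted here, 65.8%, 83.8% and 0% of the words occur, so the copies of Mif are not counted genes. How such reads were counted is not given in the sources used here. Counting Eno1b with Eno1, and Gm3839 and Gm15294 with Gapdh, gave log2 ratios of 0.99 and 1.19.

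The entry into the pathway went the other way. The 3 hexokinases together had 557 UMIs in injured and 682 UMIs in uninjured cells, a log2 ratio of their summed level of -0.86 (-1.02 to -0.69). Hk2, the main hexokinase of these cells by count, stood at 143 CPM (130 to 157) in injured cells and 264 CPM (242 to 287) in uninjured cells, a log2 ratio of -0.88. Hk3 stood at 31.7 CPM in injured and 50.2 CPM in uninjured cells (-0.66, -1.08 to -0.25). Hk1 was low, with 15 UMIs in injured and 25 UMIs in uninjured cells (-1.30, -2.33 to -0.32). Its antisense neighbour Hk1os had 3 UMIs in injured and 6 UMIs in uninjured cells. Between hexokinase and aldolase, Gpi1, glucose phosphate isomerase, stood at 201 CPM in injured and 130 CPM in uninjured cells (0.62, 0.41 to 0.83). Pfkl, the liver-type phosphofructokinase, had 294 UMIs in injured and 149 UMIs in uninjured cells (log2 ratio 0.42, 0.13 to 0.71). Without the cells of clusters 7 to 10 the ratio of Pfkl was -0.34.

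The 3 regulators of flux were not higher. Pfkfb3, whose product activates phosphofructokinase, stood at 43.3 CPM in injured and 51.1 CPM in uninjured cells, with an interval that spans 0 (-0.24, -0.62 to 0.14). Pfkfb4, of the same family, had 56 UMIs in injured and 67 UMIs in uninjured cells (log2 ratio -0.82, -1.36 to -0.29). Pdk1, the kinase that closes pyruvate dehydrogenase and a HIF-1 target, stood at 22.3 CPM in injured and 51.6 CPM in uninjured cells (-1.21, -1.67 to -0.76). So 1 of the 3 was past 2-fold, downward, or 33.3%, against 11.5% of all measured genes. The log2 ratio of their summed level was -0.69 (-0.94 to -0.44). Pdk1 does not stand for its whole family. Pdk3, not among the 32 genes, stood at 27.1 CPM in injured and 15.3 CPM in uninjured cells (0.83, 0.22 to 1.46). Pdk2 had 7 UMIs in injured and 8 UMIs in uninjured cells, and Pdk4 had 0 in both.

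Among the transporters, the lactate exporter stood out. Slc16a3, which encodes MCT4, stood at 140 CPM (127 to 154) in injured cells and 40.6 CPM (32.4 to 50.2) in uninjured cells, a log2 ratio of 1.78. Slc16a1, MCT1, stood at 12.3 CPM in injured and 20.5 CPM in uninjured cells (-0.74, -1.41 to -0.08), so Slc16a3 made up 91.9% of the UMIs of this pair in injured cells and 66.4% in uninjured cells. Slc2a1, the glucose transporter GLUT1, stood at 84.0 CPM in injured and 47.3 CPM in uninjured cells (0.83, 0.49 to 1.18). Slc2a3, GLUT3, had 23 UMIs in each library (-0.56, -1.46 to 0.33), which does not separate the libraries at this depth.

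Of the 3 oxygen-sensing genes, Hif1a alone was past 2-fold, or 33.3%, against 7.22% of all measured genes that were at least 2-fold higher. It encodes the oxygen-regulated subunit of HIF-1 and stood at 117 CPM (106 to 130) in injured cells and 42.5 CPM (34.1 to 52.3) in uninjured cells, a log2 ratio of 1.46 (1.13 to 1.81). Egln3, a prolyl hydroxylase that HIF-1 itself induces, stood at 27.5 CPM in injured and 18.2 CPM in uninjured cells (0.60, 0.03 to 1.19). Egln1, the main prolyl hydroxylase, had 20 UMIs in injured and 11 UMIs in uninjured cells, too few to separate the libraries (0.30, -0.83 to 1.51).

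Of the 8 hypoxia-responsive genes, 2 were at least 2-fold higher, against 7.22% of all measured genes, and 1 at least 2-fold lower, or 12.5% against 11.5%, with a median log2 ratio of 0.16. Bhlhe40, a transcriptional repressor, stood at 75.6 CPM in injured and 18.2 CPM in uninjured cells (2.06, 1.56 to 2.59). Mif, a cytokine with tautomerase activity, stood at 654 CPM in injured and 169 CPM in uninjured cells (1.96, 1.79 to 2.12). Adm, which encodes the vasodilator peptide adrenomedullin, stood at 28.1 CPM in injured and 76.0 CPM in uninjured cells (-1.43, -1.83 to -1.05), and 10 cells held 35.6% of its UMIs in injured and 33.3% in uninjured cells. The mitophagy receptor genes parted: Bnip3 stood at 78.2 CPM in injured and 45.9 CPM in uninjured cells (0.77, 0.42 to 1.13), and Bnip3l at 167 CPM in injured and 170 CPM in uninjured cells (-0.02, -0.22 to 0.18). P4ha1, a collagen prolyl hydroxylase subunit, stood at 160 CPM in injured and 158 CPM in uninjured cells (0.02, -0.18 to 0.22). Higd1a, which encodes a mitochondrial protein, stood at 126 CPM in injured and 103 CPM in uninjured cells (0.29, 0.05 to 0.54). Vegfa, the vascular growth factor and a textbook HIF-1 target, was at 13 UMIs in injured and 16 UMIs in uninjured cells, and its interval spans 0 (-2.04 to 0.28).

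**Figure D2:**
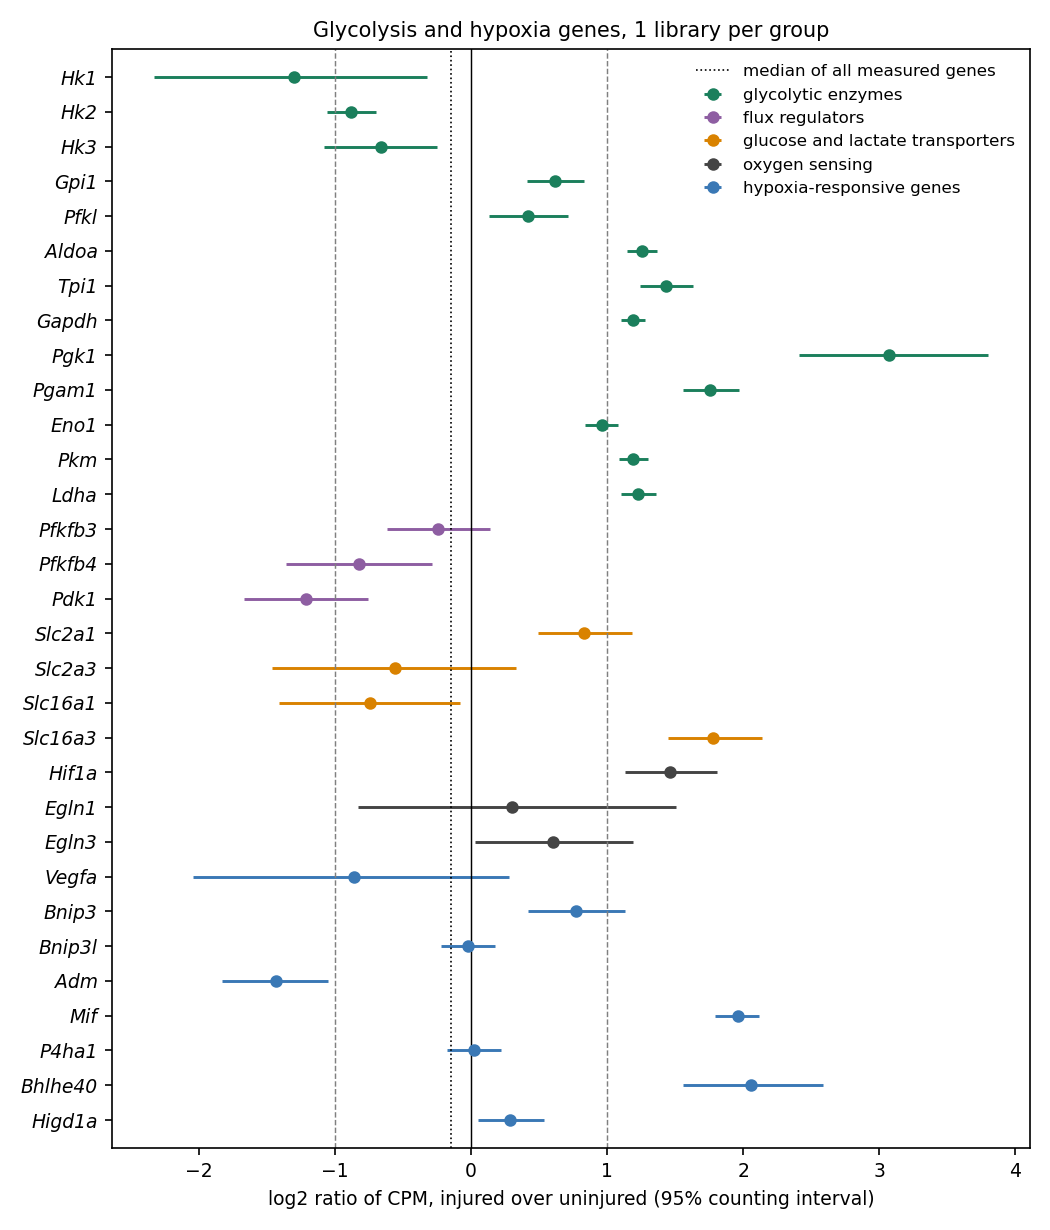
Log2 ratio of CPM, injured over uninjured, of the 31 measured genes by role, with bars for the exact 95% counting interval; dashed lines mark 2-fold and the dotted line the median of all measured genes, -0.15. Aldoa to Ldha, Slc16a3, Hif1a, Mif and Bhlhe40 lie to the right, and the hexokinases, Pfkfb4, Pdk1, Slc16a1 and Adm to the left.

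The make-up of several gene pairs differed between the libraries. Ldha made up 59.5% of the UMIs of Ldha and Ldhb in injured cells (57.9 to 61.2) and 27.1% in uninjured cells (25.2 to 29.0). Ldhb, the subunit that favours pyruvate, had 1399 UMIs in injured and 1601 UMIs in uninjured cells, a log2 ratio of -0.76 (-0.86 to -0.65). Slc2a1 made up 63.6% of the UMIs of Slc2a1 and Slc2a5 in injured cells (58.7 to 68.2) and 15.4% in uninjured cells (12.7 to 18.4). Slc2a5, a fructose transporter typical of resting microglia, had 149 UMIs in injured and 545 UMIs in uninjured cells (-2.44, -2.71 to -2.17). Hk2 kept a similar part of Hk2 and Hk3, 81.9% in injured and 84.0% in uninjured cells.

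The neighbouring pathways did not follow the payoff steps. Of 27 other glycolysis genes, 14 were measured, with a median log2 ratio of -0.71. Of the 14, 3 were at least 2-fold higher and 3 at least 2-fold lower, or 21.4% each. Of all measured genes 7.22% were higher and 11.5% lower by that size. Slc2a6, a hexose transporter of lysosomes, stood at 63.0 CPM in injured and 10.0 CPM in uninjured cells (2.65, 2.00 to 3.37). Of 8 pentose phosphate genes, 7 were measured and 0 passed 2-fold, with a share of UMIs of 0.0584% in injured and 0.0593% in uninjured cells. Of 31 genes of pyruvate entry and the TCA cycle, 28 were measured, 0 were at least 2-fold higher and 1, or 3.57%, at least 2-fold lower. It was Idh2, the mitochondrial NADP-dependent isocitrate dehydrogenase, at 40.1 CPM in injured and 115 CPM in uninjured cells (-1.52, -1.85 to -1.20). Of 11 other HIF regulators, 8 were measured and 1, or 12.5%, passed 2-fold upward, Hif1an, with an interval that spans 0. Egln2 had a log2 ratio of -0.72 (-1.09 to -0.36).

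A wider set of 34 hypoxia-responsive genes had members in both directions, and only its share of lowered genes was near the background. Of these 24 were measured, and 8 were at least 2-fold higher, or 33.3%, against 7.22% of all measured genes. Another 2 were at least 2-fold lower, or 8.33%, against 11.5% of all measured genes, and the median log2 ratio was 0.24. Angptl4, which encodes a lipoprotein lipase inhibitor, had 50 UMIs in injured and 1 UMI in uninjured cells (5.08, 2.54 to 10.41). Plaur, the urokinase receptor, stood at 258 CPM in injured and 41.6 CPM in uninjured cells (2.64, 2.32 to 2.97). Ddit4, an inhibitor of mTORC1 that hypoxia and stress induce, stood at 43.0 CPM in injured and 178 CPM in uninjured cells (-2.05, -2.35 to -1.76).

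Promoters of 5 genes are shown because HIF-1 is known to act through a short motif and these genes differed in both directions. Pgk1, Ldha and Hif1a were higher in injured cells and Hk2 and Adm lower, and they were chosen after their values were seen. The windows are the 300 bases from 250 before to 50 after the start, from RefSeq on GRCm38.p6, printed 5′ to 3′ on the strand of the gene. Capitals mark ACGTG, a form of the core of the hypoxia response element, or CACGT, its reverse complement. The core may also begin with G, as GCGTG, and that form was not searched or marked. Where ACGTG and CACGT overlap they form the palindrome CACGTG, which is also an E-box.
Pgk1, chrX:106186850-106187149, plus strand: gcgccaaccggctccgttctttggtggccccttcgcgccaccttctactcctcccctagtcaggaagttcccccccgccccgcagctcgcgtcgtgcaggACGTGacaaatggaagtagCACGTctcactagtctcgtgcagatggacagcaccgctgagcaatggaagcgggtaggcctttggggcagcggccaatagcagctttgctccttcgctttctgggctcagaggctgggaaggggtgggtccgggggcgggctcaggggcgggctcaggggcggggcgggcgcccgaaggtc
Ldha, chr7:46845554-46845853, plus strand: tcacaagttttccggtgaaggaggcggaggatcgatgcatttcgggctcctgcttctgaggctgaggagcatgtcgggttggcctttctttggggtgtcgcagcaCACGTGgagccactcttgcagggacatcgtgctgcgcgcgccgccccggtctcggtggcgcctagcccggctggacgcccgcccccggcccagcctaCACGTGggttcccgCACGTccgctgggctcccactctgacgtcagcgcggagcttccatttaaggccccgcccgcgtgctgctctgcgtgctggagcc
Hif1a, chr12:73907617-73907916, plus strand: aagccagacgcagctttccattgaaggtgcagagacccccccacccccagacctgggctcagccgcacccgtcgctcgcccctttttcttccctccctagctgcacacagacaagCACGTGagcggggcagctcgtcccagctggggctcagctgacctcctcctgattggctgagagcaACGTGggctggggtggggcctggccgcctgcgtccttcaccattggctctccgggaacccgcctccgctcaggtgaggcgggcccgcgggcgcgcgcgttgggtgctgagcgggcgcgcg
Hk2, chr6:82774405-82774704, minus strand: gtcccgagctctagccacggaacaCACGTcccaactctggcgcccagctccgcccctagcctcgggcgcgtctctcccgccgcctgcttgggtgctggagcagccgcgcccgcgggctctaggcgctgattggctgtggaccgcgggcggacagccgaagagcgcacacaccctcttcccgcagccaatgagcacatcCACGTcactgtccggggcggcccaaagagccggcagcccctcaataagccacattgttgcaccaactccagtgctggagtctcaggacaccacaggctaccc
Adm, chr7:110627407-110627706, plus strand: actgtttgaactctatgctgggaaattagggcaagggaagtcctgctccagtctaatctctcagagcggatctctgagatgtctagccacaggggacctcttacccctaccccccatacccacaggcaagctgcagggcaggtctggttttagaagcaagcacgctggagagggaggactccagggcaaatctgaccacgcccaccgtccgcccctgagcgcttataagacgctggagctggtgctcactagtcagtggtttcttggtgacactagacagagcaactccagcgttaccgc

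Matches were present in windows of genes of both directions. With a palindrome counted as 1 site, the printed windows held 2 ACGTG sites in Pgk1, 2 in Hk2 and 0 in Adm. Ldha held 3, of which 2 were palindromes, and Hif1a held 2, of which 1 was a palindrome. As GCGTG was not counted, 0 sites in Adm does not mean that its window lacks the core. The letters printed for Adm do hold CACGC, the reverse complement of GCGTG, and those for Ldha hold GCGTG, all unmarked. A second Ldha window, chr7:46846832-46847131, held 0 and is not printed. Windows were at hand for 29 of the 32 genes, 39 windows in all, and ACGTG on either strand occurred in 23 of the 39, or 59.0%, against 19.6% of 32851 windows in the table. Member windows were rich in G and C, with a median of 64.7% against 52.7%, and among 9690 windows of at least 60% GC the motif occurred in 26.5%. The 32 genes were chosen in part as known hypoxia genes, so a high share of the motif is no independent finding. A match is a description of letters and not a bound site.

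With depth set equal, Pgk1, Hif1a, Slc16a3 and Bhlhe40 were seen in a larger share of injured cells and Hk2 in a smaller one. With every cell thinned at random to 1500 UMIs, 567 injured and 604 uninjured cells remained. Pgk1 was then seen in 8.11% of injured cells (6.00 to 10.7) and 1.32% of uninjured cells (0.574 to 2.59); without thinning the shares were 26.9% of injured and 2.88% of uninjured cells. Hif1a was seen in 12.5% of injured and 7.12% of uninjured thinned cells, and in 39.3% of injured and 11.7% of uninjured cells without thinning. Slc16a3 was seen in 14.1% of injured and 5.13% of uninjured thinned cells, and Bhlhe40 in 10.8% of injured and 2.32% of uninjured ones. Without thinning, Slc16a3 was in 37.3% of injured and 10.5% of uninjured cells, and Bhlhe40 in 26.0% of injured and 4.75% of uninjured cells. Hk2 went the other way, in 18.7% of injured (15.6 to 22.2) and 32.5% of uninjured thinned cells (28.7 to 36.3), although without thinning its shares were 48.0% of injured and 50.6% of uninjured cells. No cell type known to lack these genes was sampled, so the share that free RNA alone would give is not known.

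Per cell, the genes took a median of 0.524% of UMIs in injured cells (quartiles 0.355 and 0.806, highest 2.72) and 0.368% in uninjured cells (0.294 and 0.472, highest 1.26). Of the 577 injured cells, 418 (72.4%) lay above the uninjured median, and 236 (40.9%) lay above 0.603%, the ninetieth percentile of uninjured cells, which 70 of those (10.1%) passed. The injured cells thus spread further up than the uninjured ones. In thinned cells the medians were 0.533% in injured and 0.400% in uninjured cells.

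The upper range was filled mainly by the deepest cells. In cells under 3000 UMIs the genes took 0.439% in injured and 0.398% in uninjured cells, a log2 ratio of 0.14 (0.04 to 0.24). Between 3000 and 5000 UMIs the shares were 0.498% in injured and 0.389% in uninjured cells (0.36, 0.30 to 0.42). From 5000 UMIs they were 0.963% in 238 injured cells and 0.444% in 37 uninjured cells (1.12, 1.02 to 1.21). No doublet caller was run, and the part of doublets among the deepest barcodes was not tested. Within the 3000 to 5000 range 28 of the genes were measured, and 5 of the 11 that were 2-fold higher over all cells remained so: Pgk1, Slc16a3, Hif1a, Mif and Bhlhe40. Slc2a1, at 0.83 over all cells, reached 1.24 there, which made 6 genes or 21.4%, against 4.67% of all genes measured in that range. Pdk1 and Adm were at least 2-fold lower there, or 7.14%, against 8.02% of all genes. Gapdh was at 0.31, Pkm at 0.40, Aldoa at 0.42, Ldha at 0.49, Tpi1 at 0.60 and Pgam1 at 0.87.

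**Figure D3:**
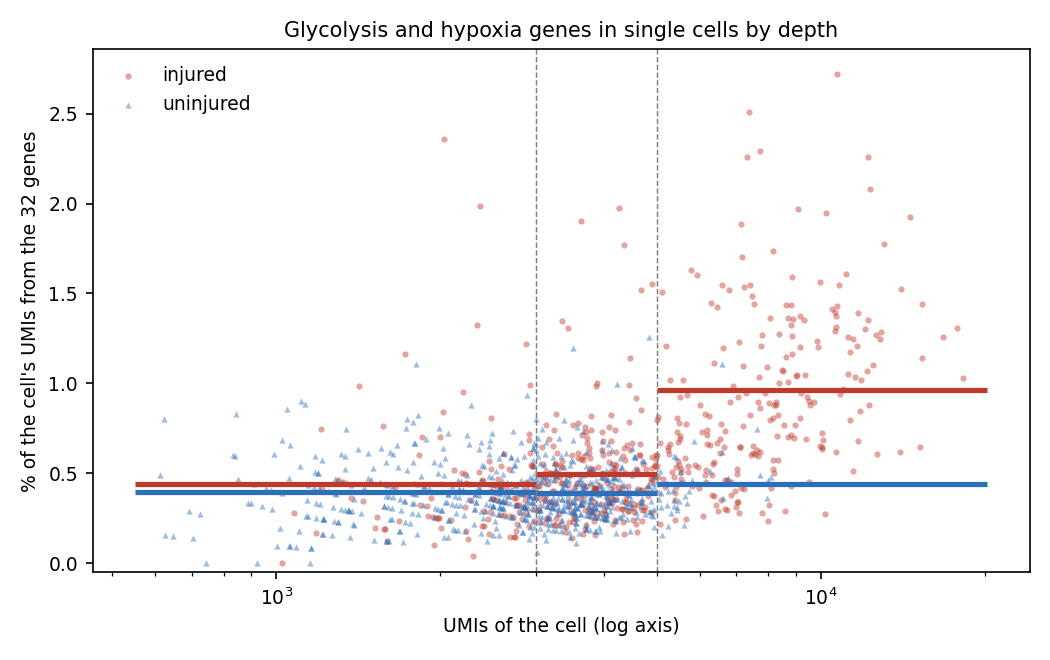
Percent of each cell's UMIs from the 32 genes against the UMIs of the cell (log axis), injured cells in red and uninjured cells in blue; horizontal lines give the pooled share below 3000, from 3000 to 5000 and from 5000 UMIs, and dashed lines the limits of those ranges. The lines part most at the right, 0.963% in injured and 0.444% in uninjured cells.

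Cells of both libraries were clustered without the genes of this account, which gave 10 clusters. They are given by number, and clusters 4 and 7 to 10 also by their 3 leading genes. Several are mostly of 1 library, so a cluster may be that library and not a type. The injured cells of cluster 7, led by Htr2b, Cd5l and Igf1, took 1.10% of UMIs from the 32 genes (1.08 to 1.12), with 149 injured and 2 uninjured cells. Over its cells microglial markers summed to 16748 CPM, damage-associated markers to 60649 CPM and monocyte markers to 316 CPM. Cluster 9, led by Nusap1, Prc1 and Ccnb1 and holding 4 dividing-cell markers among its top 10 genes, stood at 0.974% in 22 injured cells, cluster 8, led by Apoc4, Lepr and Apoc1, at 0.772% in 55, and cluster 10, led by Iigp1, Pydc3 and Ifi205, at 0.670% in 41. The injured cells of clusters 1 to 5 lay between 0.382% and 0.481%, and the uninjured cells of clusters 1 to 3, 5 and 6 between 0.363% and 0.424%. Of these, cluster 4 was led by Mgl2, Fabp4 and H2-Eb1. Over its 23 injured and 9 uninjured cells together, microglial markers summed to 6225 CPM and damage-associated markers to 108374 CPM. Border macrophage markers summed to 2418 CPM and dendritic cell markers to 2862 CPM. The dendritic cell markers had 31 UMIs in the whole injured library and 436 UMIs in the uninjured one. Their sum in cluster 4 thus came mostly from its uninjured cells.

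Both the cluster and the depth of a cell went with the share. Among injured cells under 5000 UMIs it was 0.858% in cluster 7 (0.792 to 0.928) and 0.453% in cluster 3 (0.436 to 0.471). From 5000 UMIs it was 1.11% in cluster 7 (1.09 to 1.13) and 0.548% in cluster 3 (0.519 to 0.578), so the deep cells of cluster 3 lay below the shallow cells of cluster 7. Within clusters 8 and 10 the deeper cells had the higher share too, 0.934% from 5000 UMIs and 0.596% below in cluster 8, and 0.783% from 5000 UMIs and 0.422% below in cluster 10.

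Where both libraries filled a cluster with 20 cells or more, the 2 libraries mostly lay close together. The log2 ratio of the summed share was -0.09 (-0.28 to 0.10) in cluster 1, 0.06 (-0.12 to 0.24) in cluster 2, 0.01 (-0.15 to 0.17) in cluster 5 and 0.18 (0.04 to 0.33) in cluster 3. Cluster 8 was the exception, at 0.772% in 55 injured cells and 0.409% in 32 uninjured cells (0.92, 0.71 to 1.13), with median depths of 3790 UMIs in injured and 1571 UMIs in uninjured cells. There Gapdh had 347 UMIs in injured and 18 UMIs in uninjured cells (2.08, 1.39 to 2.85).

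**Figure D4:**
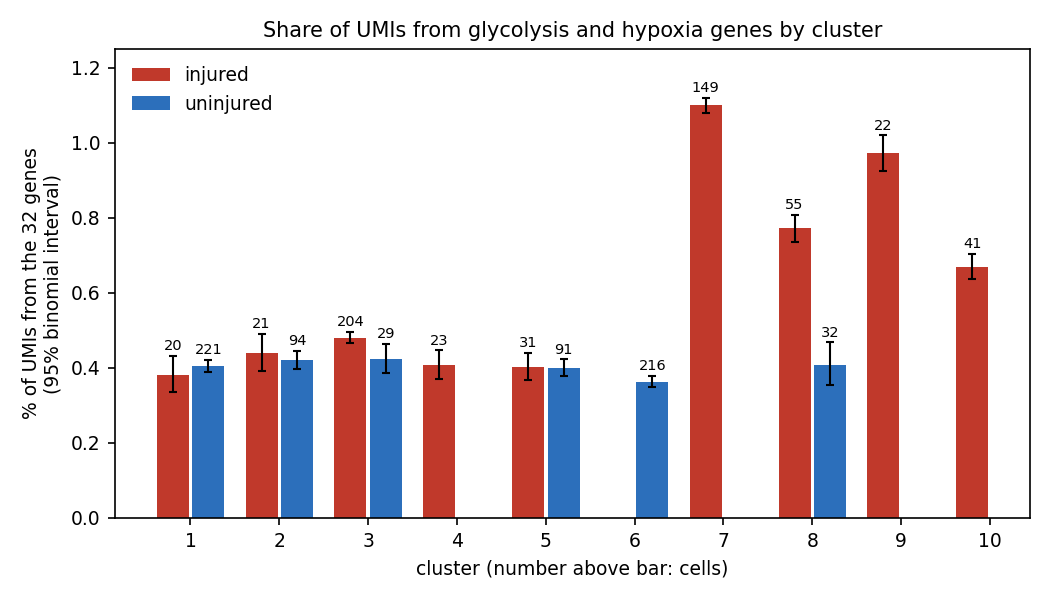
Percent of UMIs from the 32 genes in injured (red) and uninjured (blue) cells of each cluster with at least 20 cells in that library, with exact 95% binomial intervals and the number of cells above each bar. Injured cells of clusters 7 to 10 stand between 0.670% and 1.10%, above all other bars.

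Clusters 7 to 10 held 267 injured cells, 46.3% of them, with 61.2% of injured UMIs and 77.5% of the injured UMIs of the 32 genes. In the other clusters the genes took 0.456% of UMIs in 310 injured cells and 0.394% in 660 uninjured cells. There 30 of the genes were measured, and 3 of the 11 remained at least 2-fold higher, Pgk1 at 2.01, Bhlhe40 at 1.59 and Hif1a at 1.05, or 10.0% against 4.76% of all genes measured. Hk1, Pdk1 and Adm remained at least 2-fold lower, also 10.0%, which is near the 8.18% of all genes. The other 8 genes that were 2-fold higher over all cells were not: Slc16a3 stood at 0.97, Mif at 0.76, Pgam1 at 0.65, Tpi1 at 0.37, Aldoa and Ldha at 0.36, Pkm at 0.23 and Gapdh at 0.21. Cluster 3 held 204 of these injured cells and 29 of these uninjured cells, so the 2 sides differed in make-up. Within cluster 3 the log2 ratio was -0.23 (-1.38 to 1.17) for Bhlhe40 and 0.33 (-0.66 to 1.51) for Hif1a. The intervals of Hif1a also spanned 0 within clusters 1 and 2. Pgk1 had 32 UMIs in injured and 0 UMIs in uninjured cells of cluster 3.

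Single genes followed different clusters. Ldha was highest in cluster 7, at 933 CPM in injured cells (880 to 987), and next in cluster 10 at 744 CPM (638 to 863). Hk2 was highest in cluster 1 at 286 CPM (170 to 452), with wide intervals, and lowest in cluster 4 at 83.5 CPM (38.2 to 158). Bhlhe40 stood at 101 CPM in cluster 7 (83.9 to 120). In clusters 2 and 4 it rested on 8 and 11 UMIs, at 110 CPM (47.7 to 218) and 102 CPM (50.9 to 183), which does not separate them from cluster 3 at 56.8 CPM (41.6 to 75.8). Adm had 0 UMIs in the injured cells of clusters 4 and 8. Among uninjured cells it stood at 107, 171 and 66.7 CPM in clusters 1, 2 and 5, and at 19.7 CPM in cluster 6. Its log2 ratio within clusters 1, 2, 3 and 5 was -0.76, -3.63, 0.12 and 0.64, and only in cluster 2 did the interval exclude 0. Dissociation-linked genes summed to 18255, 21499 and 17371 CPM over all cells of clusters 1, 2 and 5, and to 8858 CPM in cluster 6. Their part in the level of Adm was not tested.

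**Figure D5:**
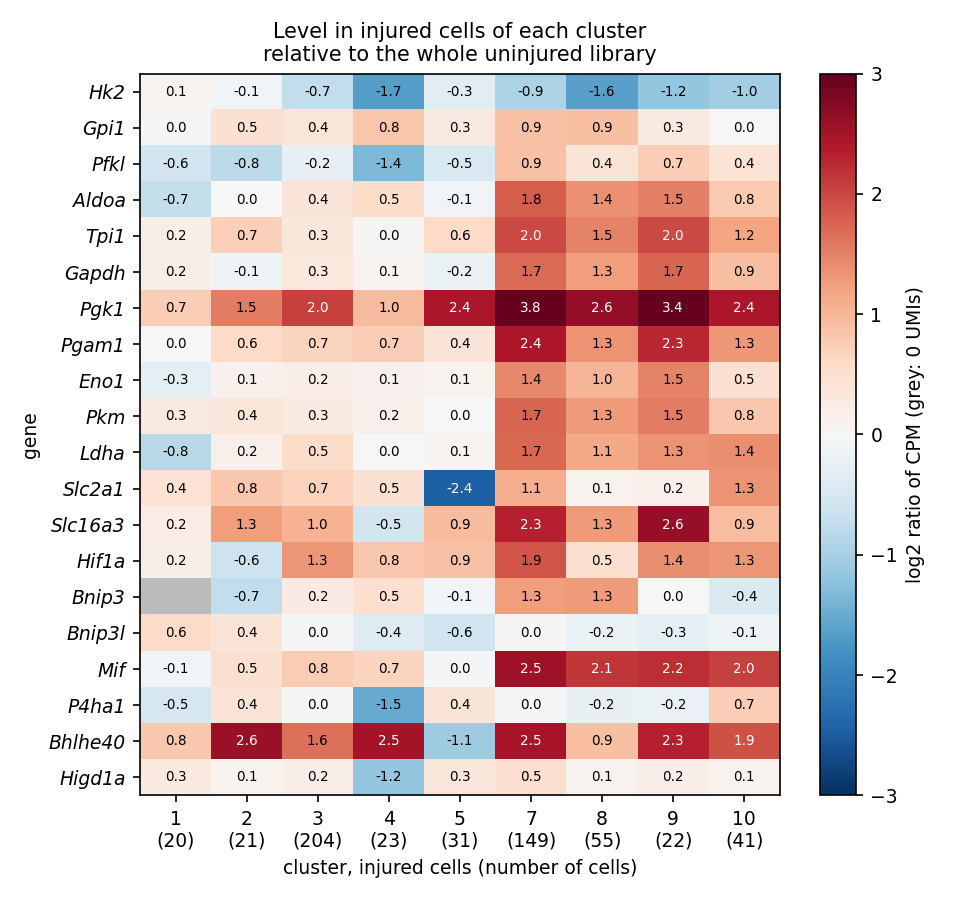
Log2 ratio of the CPM in injured cells of each cluster to the CPM of the whole uninjured library, for genes with at least 200 UMIs in injured cells; rows are genes, columns are clusters with their number of cells, and grey marks 0 UMIs. Aldoa to Ldha, Slc16a3 and Mif are red in clusters 7 to 10. Pgk1, Slc16a3 and Mif are red in some other clusters too, and Hk2 is blue in most.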

How the data were processed

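The deposited values were whole-number UMI counts per gene and cell barcode, 1 matrix per library, which the authors made with the 10x Chromium 3′ version 2 chemistry, per the labels' protocols. The tools named in the submitters' processing notes are Seurat 2.1.0, Cell Ranger 2.0.1 and STAR, and the builds GRCm38.p5 and mm10; how each was applied is not given in the sources used here. Scatter gates excluded cell doublets, per the labels' protocols, and no doublet caller was run.

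Of 580 injured and 705 uninjured barcodes, those with at least 200 genes and at most 10% mitochondrial UMIs were kept, which removed 3 injured and 10 uninjured barcodes. UMIs were summed over kept cells and divided by the library total to give CPM. Ratios have an exact 95% interval, derived from the exact binomial (Clopper-Pearson) limits of the part of a gene's UMIs that is injured; shares have binomial limits of the same kind, CPM exact Poisson ones, and a gene with 0 UMIs is set to a floor of 3 counts. A gene with at least 20 UMIs over both libraries is measured and 2-fold is the size named in counts of genes. With 1 library per group no test was possible by design, so no p-value was computed. Each measured gene of the 32 is given its values. Of each other list the text names at most 3 higher and 3 lower genes, by the interval bound nearest 0. Ldhb, named beside Ldha, Hif1an, named as past 2-fold, and Pdk2, Pdk3 and Pdk4, named beside Pdk1, are outside that rule. The 32 genes and all lists were chosen with earlier results of these data known.

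Cells were clustered with scanpy 1.11.5 on the 2000 most variable genes, 20 principal components and 15 neighbours at resolution 1.0, without the listed metabolic, hypoxia and sex-linked genes. Alternatives used edgeR 4.0.16 TMM and DESeq2 1.42.0 size factors, other filters, thinned cells and subsets of cells. The ratio script was tested on simulated data. Transcript copies were searched in the GENCODE annotation supplied, and promoters in RefSeq sequences of GRCm38.p6.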

Additional observations from a re-analysis of the deposited data

How the results depend on the processing

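No paired analysis was possible because each group is 1 library, and for the same reason no replicate could be left out. Of 542 values of single genes over 18 alternative settings, 460 moved by less than their counting interval, 82 moved by more and 0 of the called ones changed sign. The log2 ratio of the summed share, 0.98, came to 1.13 under TMM scaling, 1.17 under DESeq2 scaling, 0.74 in thinned cells, 0.36 in cells of 3000 to 5000 UMIs, 0.73 as a mean over cells and 0.94 in cells with Y-linked UMIs and no Xist UMI. Under TMM factors all measured genes split into 8.79% at least 2-fold higher and 8.67% lower, and under DESeq2 factors into 9.39% and 7.86%, against 7.22% and 11.5%; the scaling shifts every log2 ratio by 0.15 and 0.19. Against 11 genes at least 2-fold higher, there were 6 in cells of 3000 to 5000 UMIs, 5 of them among the 11, and 7 as a mean over cells, all among the 11, where 4.67% and 6.86% of all genes were. At 1.5-fold 16 genes were higher (51.6%, against 14.4% of all genes) and 8 lower (25.8%, against 25.9%). In thinned cells Gapdh (0.92), Ldha (0.94) and Hif1a (0.88) were under 2-fold. In thinned cells, the median share of cells with a UMI over the genes was 11.6% of injured and 7.78% of uninjured cells. Without thinning, where depth differs between the libraries, it was 31.9% of injured and 14.5% of uninjured cells. Chosen after seeing the data, leaving out the injured cells of cluster 7 gave 0.51 and 6 genes (19.4%, against 5.84% of all genes), and leaving out clusters 7 to 10 gave 0.21 and 3 genes (10.0%, against 4.76%). The sign of the ratio changed in at least 1 setting for Pfkl, Pfkfb3, Slc2a3, Bnip3l and P4ha1, all within 2-fold. The highest cluster's share was 2.88 times the lowest, 2.79 times at 0.5 of the clustering resolution and 3.40 times at 2 times it. The median log2 ratio of the genes ran from 0.16 to 0.80 over the settings. Counts under about 25 UMIs, as for Egln1, Vegfa and Slc2a3, limit what can be seen.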
